A study of Homo sapiens with 4 samples.

Results

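The genes described here code for fibronectin and for the matricellular glycoproteins measured beside it, *FN1*, *TNC*, *THBS1*, *THBS2*, *THBS3*, *SPARC*, *TGFBI*, *POSTN*, *EDIL3* and *SPP1*. They were taken by name from the table of gene counts and are 10 of its 63677 genes, and they were chosen with earlier results of these data known, so the shares over all genes given beside their counts are a background and not a test. The cells were LX-2, a human line derived from hepatic stellate cells, the pericytes of the liver sinusoid, and they had been given either miControl, the MiRIDIAN mimic Negative Control #1, or a mimic of miR-6133-5p, both at 20 nM. All cells received 5 ng/mL of rhTGF-β1 after 24 h, the control cells included, and RNA was collected 24 h later, so no library shows these genes without TGF-β. There were 2 libraries in each group, called replicates 1 and 2. The sources do not say that the replicates were separate cultures, so the p-values measure only the spread between these libraries, which may be technical, and all values come from a single cell line.

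Hepatic stellate cells become the main matrix-producing cells of the injured liver, and TGF-β is the best known signal that drives them to do so. Fibronectin is laid down as fibrils by cells through integrins, and these fibrils serve as a scaffold for collagen and for other matrix proteins. Matricellular proteins are secreted into the same matrix but act less as building material than as signals to the cell, through integrins, CD36, CD47 and other receptors, and many of them are made at high levels in wounds and fibrosis.

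The counts on genes summed to between 51862006 and 93811213 per library. Values are given as CPM, that is, counts relative to a common library size, with library totals scaled by the TMM factors of edgeR (0.941 to 1.06), and 3 counts were worth at most 0.0610 CPM. *TGFBR2*, the TGF-β receptor gene examined by the study as a target of the miRNA, was at 542 and 552 CPM with miControl and at 109 and 112 CPM with miR-6133-5p. The summed level of 8 stellate cell markers was 5460 and 4947 CPM with miControl and 3266 and 2924 CPM with miR-6133-5p, and *COL1A1*, *COL1A2*, *ACTA2* and *TAGLN* were among the genes called lower, with *COL1A1* alone at 3112 and 2723 CPM against 995 and 1133 CPM. *VIM* and *PDGFRB* were not called, with log2 fold changes of -0.02 and 0.04 (edgeR adjusted p = 0.937 and 0.849), and *DES* and *LRAT* had too few counts to be tested. Markers of hepatocytes (0.0407 to 0.141 CPM summed), endothelial cells (2.46 to 2.99 CPM) and immune cells (1.16 to 2.27 CPM) were near 0, with *TTR* and *CD3E* at 0 in every library. Epithelial markers summed to 3.70 and 4.59 CPM with miControl and to 6.82 and 7.32 CPM with miR-6133-5p, and the part of this difference in the results was not tested.

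The miR-6133-5p libraries also differed from each other by transcript length. Among 9028 genes with a mean above 10 CPM, the median log2 ratio of replicate 2 to replicate 1 in that group was -0.24 for genes whose longest transcript had up to 1000 bases and 0.23 for genes with over 8000 bases. The same medians lay at -0.06 and 0.06 for the miControl libraries. The log2 ratio correlated with transcript length across these genes with a Spearman's rho of 0.63 in the miR-6133-5p group and 0.31 in the miControl group, where the genes of a library share its RNA and depth and are not independent. The median log2 fold change between the groups went from 0.14 in the shortest class to -0.12 in the longest. The longest transcripts of *FN1*, *TNC*, *THBS1* and *THBS2* had 9171, 8500, 7789 and 5811 bases. Their log2 ratios of miR-6133-5p replicate 2 to replicate 1 were 0.37, 0.34, 0.21 and 0.22. Their values are therefore also given from a fit with an offset for this trend, an alternative chosen after the data were seen.

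**Figure D1:**
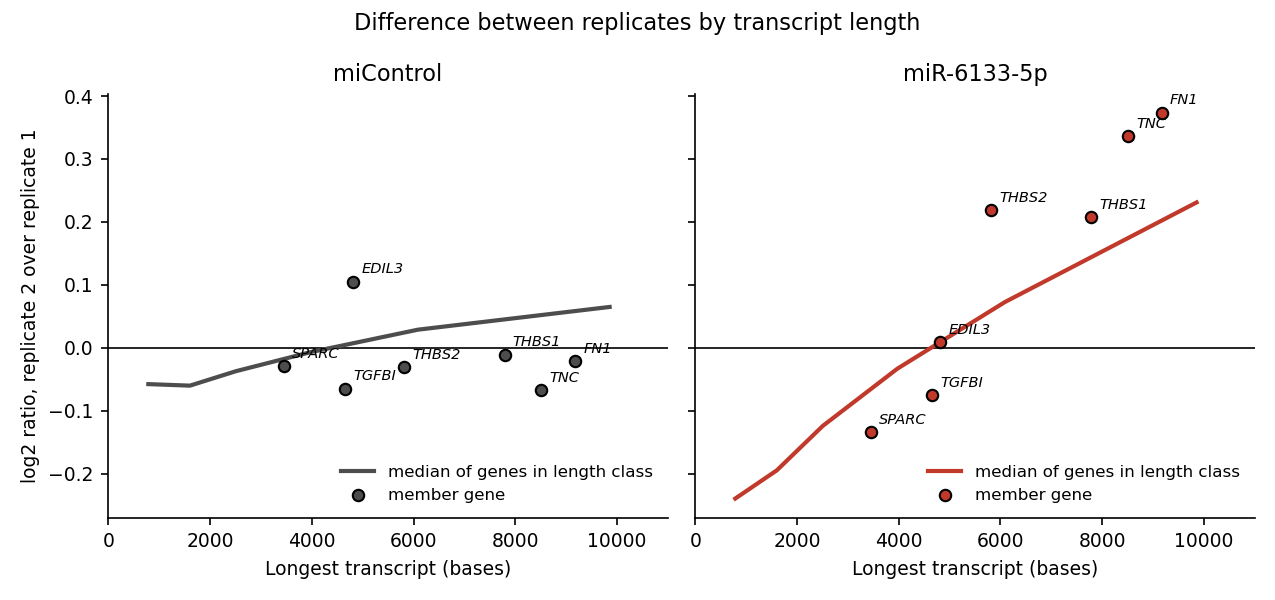
Log2 ratio of replicate 2 to replicate 1 against the longest transcript in bases, miControl on the left and miR-6133-5p on the right, where lines join the medians of 6 length classes and points are 7 of the 10 genes, without the scarce *THBS3*, *POSTN* and *SPP1*. The miR-6133-5p line climbs from -0.24 to 0.23, whereas the miControl line stays between -0.06 and 0.06. *FN1*, *TNC*, *THBS1* and *THBS2* lie above the miR-6133-5p line at 0.37, 0.34, 0.21 and 0.22.

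Of the 10 genes, all of which had enough counts to be tested, 4 were lower and 1 was higher with miR-6133-5p than with miControl at an adjusted p-value under 0.01 with a difference of more than 0.8 on the log2 scale, the criteria of a call throughout. *FN1*, *TNC*, *THBS1* and *EDIL3* fell by 52.4%, 47.2%, 45.1% and 46.7%, and *THBS3*, which is scarce in these cells, rose 1.94-fold. Among all 18252 tested genes, the called shares were 5.54% in the lower and 2.90% in the higher direction, or 8.44% in all. A further 3 genes, *THBS2*, *SPARC* and *TGFBI*, had adjusted p-values under 0.01 with smaller differences, making 8 of 10 under that p-value at any fold, against 18.8% of all tested genes. With library totals alone, *FN1* stayed called at a log2 fold change of -0.91, while *TNC*, *EDIL3* and *THBS1*, at -0.76, -0.75 and -0.70, did not reach the fold, and over all genes 709 calls were then lower and 977 higher, against 1011 and 529. The glmTreat test of the fold of 0.8 itself called 0 of the 10 genes in either direction, where DESeq2 and limma-voom called 4 lower and 1 higher, as edgeR did. The values of the groups did not overlap for 9 genes, 8 of them lower and 1 higher, where 31.3% and 33.2% of all tested genes did so in these directions, or 64.4% in all. The median log2 fold change of the 10 genes was -0.68, beside 0.03 for all tested genes. In RNA from a whole culture, fewer cells making a transcript and less of it per cell cannot be told apart.

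**Figure D2:**
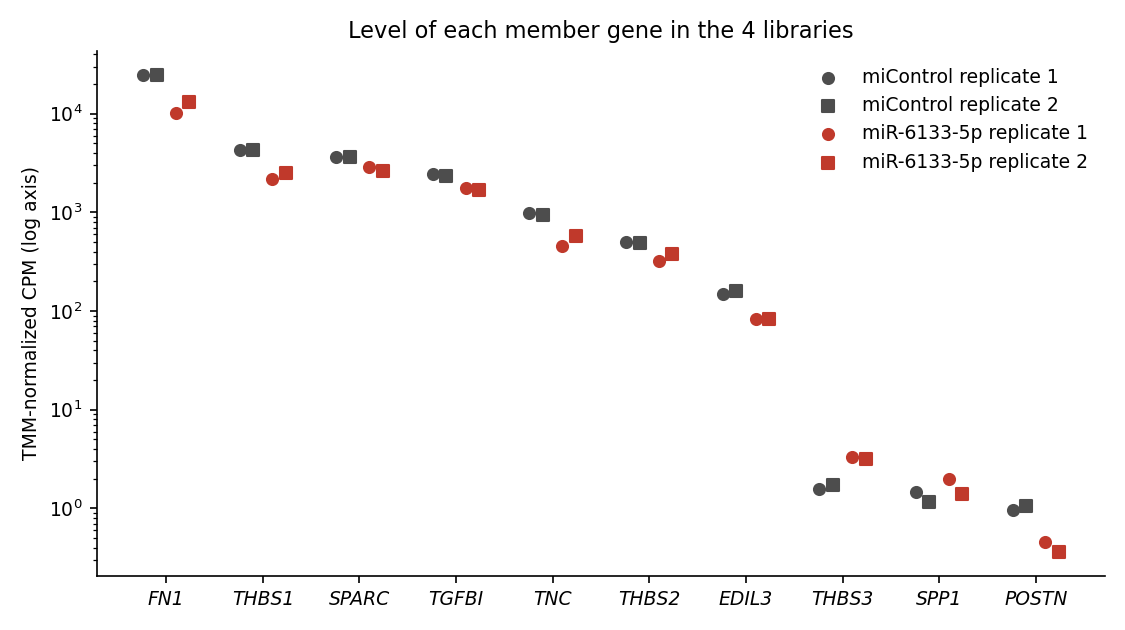
TMM-normalized CPM of each of the 10 genes on a log axis, with 1 point per library, circles for replicate 1 and squares for replicate 2, and genes ordered by their miControl mean. Both points of miR-6133-5p lie under those of miControl for 8 genes and above them for *THBS3*, and the points overlap for *SPP1*.

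*FN1* (ENSG00000115414, chromosome 2, 216225163 to 216300796 on GRCh37, minus strand) codes for fibronectin, the founding protein of the provisional matrix. It stood at 24874 and 24503 CPM in the miControl libraries and at 10244 and 13270 CPM in the miR-6133-5p libraries. Both miR-6133-5p libraries were far below both controls, and the gap between them was wider than that between the controls. The means were 24688 ± 262 and 11757 ± 2139.6 CPM (SD, n = 2). The log2 fold change was -1.07 (SE 0.118, 95% confidence interval -1.33 to -0.81, edgeR's quasi-likelihood test with Benjamini–Hochberg adjusted p = 1.87e-05). With the offset for transcript length it was -0.95, and leaving out each library in turn gave -1.27 to -0.90. No exon of *FN1* overlapped an exon of another gene on the opposite strand.

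*TNC* (ENSG00000041982, chromosome 9, 117781854 to 117880486, minus strand) codes for tenascin C, a large glycoprotein that is sparse in resting tissue and deposited in wounds, where it binds fibronectin and integrins. Its level was 994 and 949 CPM with miControl and 453 and 572 CPM with miR-6133-5p, so that the groups lay well apart. The means were 971 ± 32.0 and 513 ± 84.2 CPM (SD, n = 2), with a log2 fold change of -0.92 (SE 0.121, interval -1.18 to -0.66, edgeR adjusted p = 7.99e-05). The offset for transcript length gave -0.81. Without miR-6133-5p replicate 1 it was -0.76, which is short of the fold needed for a call. Leaving out any other single library gave -1.10 to -0.89.

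*EDIL3* (ENSG00000164176, chromosome 5, 83236373 to 83680698, minus strand) codes for a secreted protein with EGF-like and discoidin domains that binds the integrin made from *ITGAV* and *ITGB3*. It was at 150.01 and 161 CPM with miControl and at 82.6 and 83.2 CPM with miR-6133-5p. The miR-6133-5p libraries were nearly equal here, unlike for *FN1* and *TNC*. The means were 156 ± 8.02 and 82.9 ± 0.377 CPM (SD, n = 2), and the log2 fold change was -0.91 (SE 0.102, interval -1.13 to -0.69, edgeR adjusted p = 2.23e-05). Leaving out each library in turn gave -0.97 to -0.88, and the offset for transcript length gave -0.88. The study lists *EDIL3* among genes that it picked as lower in these same libraries, so its direction here is not independent evidence.

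The thrombospondins are calcium-binding glycoproteins that bridge the matrix and the cell surface. *THBS1* and *THBS2* form trimers and bind CD36 and CD47, and thrombospondin 1 is known as an activator of latent TGF-β, whereas *THBS3* belongs to the pentameric subgroup. *THBS1* (ENSG00000137801, chromosome 15, 39873280 to 39891667, plus strand) was at 4289.7 and 4257 CPM with miControl and at 2178 and 2515 CPM with miR-6133-5p. The controls were close to each other and the miR-6133-5p libraries were both far lower. The means were 4273 ± 23.3 and 2347 ± 238 CPM (SD, n = 2), with a log2 fold change of -0.86 (SE 0.105, interval -1.09 to -0.64, edgeR adjusted p = 4.11e-05). The call was lost at -0.76 without miR-6133-5p replicate 1 and at -0.75 with the offset for transcript length.

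*THBS2* (ENSG00000186340, chromosome 6, 169615875 to 169654145, minus strand) was at 496 and 485 CPM with miControl and at 323 and 376 CPM with miR-6133-5p. The groups did not overlap, but the distance between them was smaller than for *THBS1*. The means were 491 ± 7.57 and 349 ± 37.4 CPM (SD, n = 2), and the log2 fold change of -0.49 (SE 0.109, interval -0.72 to -0.25, edgeR adjusted p = 0.00409) did not reach the fold needed for a call. The offset for transcript length gave -0.43. Exons of *THBS2-AS1*, an antisense gene, covered 31.2% of the exon bases of *THBS2* on the opposite strand. The antisense gene was at 0.704 to 1.23 CPM, and its log2 fold change of -0.35 had an edgeR adjusted p of 0.476.

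*THBS3* (ENSG00000169231, chromosome 1, 155165379 to 155178842, minus strand) was the single gene of the 10 called higher. It had 78 and 95 counts with miControl and 216 and 315 counts with miR-6133-5p, which is 1.59 and 1.74 CPM against 3.30 and 3.18 CPM. Both miR-6133-5p libraries were above both controls at a level far below that of *FN1*. The means were 1.67 ± 0.111 and 3.24 ± 0.0892 CPM (SD, n = 2), with a log2 fold change of 0.96 (SE 0.210, interval 0.50 to 1.41, edgeR adjusted p = 0.00377). The log2 fold change was 0.89 without miControl replicate 1 and 1.00 without miControl replicate 2. Each of these fits leaves 1 library in a group, and neither kept the call. With a block for replicate number the edgeR adjusted p was 3.59e-04. That fit also lowered the edgeR adjusted p of *FN1*, from 1.87e-05 to 3.59e-15, so the drop is not particular to *THBS3*. The replicate numbers were not taken to pair the libraries. In glmTreat, which tests for a difference beyond 0.8 and not against 0, the adjusted p of *THBS3* was 0.952. Exons on the opposite strand, of the neighbour *MTX1* and of *THBS3-AS1*, overlapped 29.1% of the exon bases of *THBS3*. The strand setting of the counting is not given in the sources used here. *MTX1* was at 16.4 to 19.5 CPM in the 4 libraries with a log2 fold change of -0.01 (edgeR adjusted p = 0.972).

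*SPARC* and *TGFBI* were 2 of the 4 most abundant of these genes and changed least among those under the p-value of 0.01. *SPARC* (ENSG00000113140, chromosome 5, 151040657 to 151066536, minus strand), whose product binds collagen and helps its assembly into fibrils, was at 3677 and 3602 CPM with miControl and at 2879 and 2623 CPM with miR-6133-5p. The means were 3639 ± 53.1 and 2751 ± 181 CPM (SD, n = 2), and the log2 fold change was -0.40 (SE 0.0995, interval -0.62 to -0.19, edgeR adjusted p = 0.00784). *TGFBI* (ENSG00000120708, chromosome 5, 135364677 to 135399507, plus strand), named for its induction by TGF-β, codes for a secreted protein that binds collagens and integrins. It was at 2425 and 2317 CPM with miControl and at 1772 and 1682 CPM with miR-6133-5p. Both genes were lower in each miR-6133-5p library than in each control, by less than is needed for a call. The means of *TGFBI* were 2371 ± 76.0 and 1727 ± 63.6 CPM (SD, n = 2), with a log2 fold change of -0.46 (SE 0.0988, interval -0.67 to -0.24, edgeR adjusted p = 0.00340).

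For *THBS2*, *SPARC* and *TGFBI* the log2 fold changes were -0.48, -0.40 and -0.43 without miControl replicate 1. They were -0.53, -0.44 and -0.51 without miControl replicate 2. Without miR-6133-5p replicate 1 they were -0.38, -0.47 and -0.50. Without miR-6133-5p replicate 2 they were -0.60, -0.34 and -0.42. Each of these fits leaves 1 library in a group, so only the fold is given. These fits do not show that the adjusted p-values under 0.01 hold with a library left out. Scaling by library totals alone moves the median over all genes on the log2 scale from 0.03 to 0.19. It gave *THBS2*, *SPARC* and *TGFBI* log2 fold changes of -0.33, -0.24 and -0.29, with edgeR adjusted p-values of 0.0317, 0.0782 and 0.0337. With counts thinned to the smallest library, the edgeR adjusted p-values of *THBS2*, *SPARC* and *TGFBI* were 0.00587, 0.0101 and 0.00442. In glmTreat, which tests for a difference beyond the fold needed for a call, these genes were not called. Their estimates lie short of that fold, so glmTreat cannot decide whether they differed at all. All 10 genes kept their sign in the 14 alternatives that give a fold change of their own.

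*POSTN* (ENSG00000133110, chromosome 13, 38136720 to 38172981, minus strand) codes for periostin, a relative of the *TGFBI* product that promotes collagen cross-linking. It had 47 and 58 counts with miControl and 30 and 36 counts with miR-6133-5p, or 0.956 and 1.06 CPM against 0.459 and 0.363 CPM. The groups did not overlap, at a level where these few counts limit the precision. The means were 1.01 ± 0.0770 and 0.411 ± 0.0677 CPM (SD, n = 2). Its log2 fold change of -1.31 was the most negative of the 10 but had the widest interval, -2.11 to -0.51, and did not pass the test (SE 0.371, edgeR adjusted p = 0.0172). It passed with no filter on low counts (0.00400) and with at least 10 counts in every library (0.00909). It also passed with a block for replicate number (0.00669). These were the 3 of its 16 alternatives with an adjusted p under 0.01. The fit with no filter also lowered the edgeR adjusted p of *FN1*, from 1.87e-05 to 3.53e-41, so the drop there is not particular to *POSTN*. *POSTN* did not pass with library totals alone (edgeR adjusted p = 0.02825) or in DESeq2 (adjusted p = 0.0225). In glmTreat, which tests for a difference beyond 0.8 and not against 0, the adjusted p was 0.486.

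*SPP1* (ENSG00000118785, chromosome 4, 88896819 to 88904684, plus strand) codes for osteopontin, a phosphorylated ligand of integrins and CD44. It had 72 and 63 counts with miControl and 129 and 140 counts with miR-6133-5p, or 1.46 and 1.16 CPM against 1.97 and 1.41 CPM. The groups overlapped, since miR-6133-5p replicate 2 was below miControl replicate 1. The means were 1.31 ± 0.218 and 1.69 ± 0.397 CPM (SD, n = 2), and the log2 fold change of 0.36 (SE 0.280, interval -0.24 to 0.97, edgeR adjusted p = 0.371) has an interval that spans 0, so no difference was detectable at this depth.

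**Figure D3:**
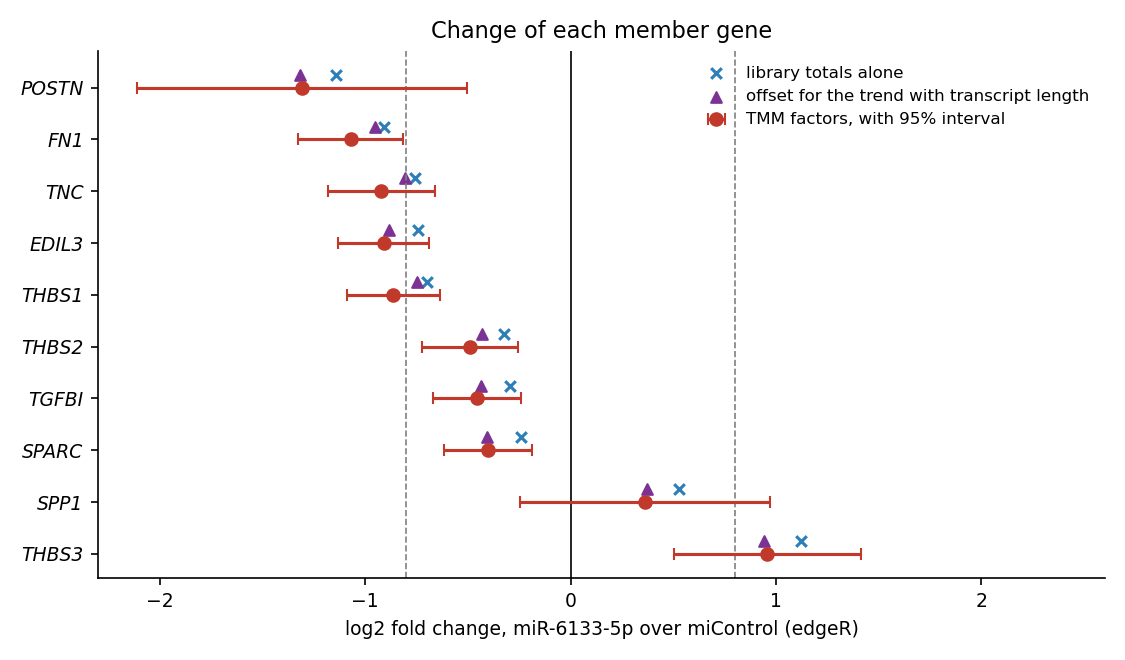
Log2 fold change of miR-6133-5p over miControl for each of the 10 genes, where circles with bars give the edgeR estimate and its 95% confidence interval, crosses the value with library totals alone, triangles the value with the offset for transcript length, and dashed lines the fold of 0.8. Crosses lie to the right of the circles for all 10 genes, *FN1* stays beyond the lower line on all 3 scales, and the interval of *SPP1* spans 0.

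The 10 genes together held 3.50% and 3.41% of all counts in the miControl libraries and 1.90% and 2.23% in the miR-6133-5p libraries. The 95% Wilson intervals of these shares, which cover counting error only, were at most 0.010 percentage points wide. They take counts as independent, although the mates of a pair were counted singly, so they are too narrow. *FN1* alone held 2.36% and 2.30% with miControl and 1.08% and 1.40% with miR-6133-5p, and it had more counts than any other gene in each of the 4 libraries. The mean share of the 10 genes was 3.46 ± 0.0610% with miControl and 2.07 ± 0.236% with miR-6133-5p (SD, n = 2), and *FN1* held 78.3% of the difference between these means. The other 9 genes held 1.14% and 1.11% of counts with miControl and 0.815% and 0.830% with miR-6133-5p. No share of either group reached into the other in these 3 comparisons, and 2 libraries against 2 cannot give an exact permutation p below 0.33, so none was computed.

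Within the 10 genes, the part of the counts that was fibronectin was smaller with miR-6133-5p. *FN1* held 67.4% and 67.5% of their counts with miControl and 57.1% and 62.8% with miR-6133-5p. These shares are not corrected for the trend with transcript length. By number of counts among all genes, *THBS1* was at rank 9 in both controls and at ranks 21 and 16 in the miR-6133-5p libraries, and *TNC* went from ranks 93 and 100 to 260 and 169. *SPARC* stayed between ranks 11 and 14 in the 4 libraries. *EDIL3* was at ranks 1503 and 1388 with miControl and at 2763 and 2773 with miR-6133-5p.

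**Figure D4:**
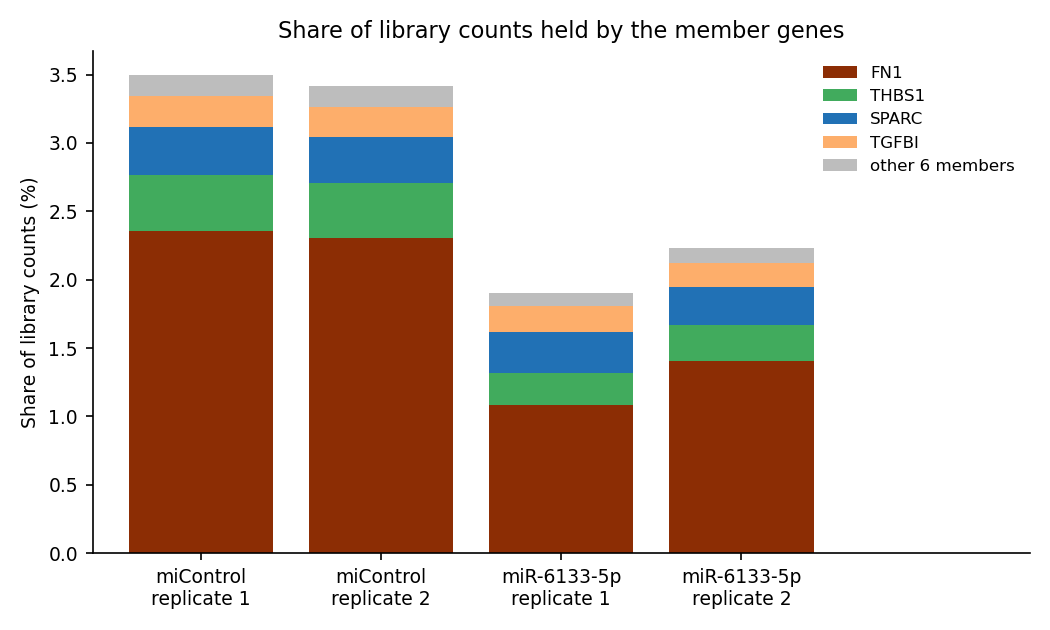
Percent of all counts on genes in each library, stacked as *FN1*, *THBS1*, *SPARC*, *TGFBI* and the other 6 genes together. The stack is 3.50% and 3.41% high in the miControl libraries and 1.90% and 2.23% high in the miR-6133-5p libraries, and *FN1* is the thickest layer in each.

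Levels were compared between genes as TPM, that is, counts divided by the exon length of the gene and scaled to the same sum in each library. With the union of all annotated exons as the length, *FN1* was at 6441 and 6390 TPM with miControl and *SPARC* at 3534 and 3487 TPM. *THBS1* followed at 2088 and 2087 TPM and *TGFBI* at 1401 and 1348 TPM, and these 4 genes held 93.8% of the TPM of the 10 in that group. *TNC* and *THBS2* were on a lower level, at 462 and 444 TPM and at 307 and 303 TPM, and *EDIL3* was at 115 and 124 TPM. *THBS3* (1.53 and 1.69 TPM), *POSTN* (0.780 and 0.875 TPM) and *SPP1* (0.900 and 0.716 TPM) were lowest, and the libraries of *POSTN* and *SPP1* overlapped, so their order is not resolved. By TPM among all genes with an exon length, *FN1* was not first, unlike by counts. It was at ranks 11 and 12 with miControl and at ranks 22 and 18 with miR-6133-5p.

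With miR-6133-5p the distance between *FN1* and *SPARC* was narrower. *FN1* was at 2714 and 3782 TPM and *SPARC* at 2831 and 2775 TPM, so that *SPARC* was above *FN1* in replicate 1 and below it in replicate 2. These libraries differ by transcript length, and TPM does not correct for that trend. The log2 ratio of CPM in replicate 2 to replicate 1 was 0.37 for *FN1* and -0.13 for *SPARC*. The part of the trend in this change of order was not tested. With the longest transcript as the length, *FN1* stayed above *SPARC* in both libraries, at 3721 and 5164 TPM against 2779 and 2712 TPM. *THBS1* and *TGFBI* also came close, at 1085 and 1348 TPM and at 1047 and 1069 TPM, and their order was the opposite with the longest transcript, at 931 and 1152 TPM for *THBS1* and 1266 and 1288 TPM for *TGFBI*. *TNC* (216 and 293 TPM) was above *THBS2* (205 and 256 TPM) within each library of this group. With the longest transcript, *TNC* was below *THBS2* in replicate 1 (178 against 185 TPM) and above it in replicate 2 (240 against 231 TPM). The TPM of *THBS1* was 6.80 and 6.90 times that of *THBS2* with miControl and 5.30 and 5.26 times with miR-6133-5p, and *THBS3* held 0.0673% of thrombospondin TPM with miControl and 0.231% with miR-6133-5p.

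The receptors of these proteins were read from a list of 19 genes, 16 of them tested. Of these, 5 were called lower and 0 higher, beside the 5.54% and 2.90% of all tested genes, and the median log2 fold change was -0.47. DESeq2 called 4 receptors lower, without *LRP1*, and limma-voom 5, and both called 0 higher, while 2 had an unadjusted p under 0.05 in that direction in edgeR. *ITGA5*, which pairs with *ITGB1* as the classical fibronectin receptor, was at 1034 and 939 CPM with miControl and at 107 and 118 CPM with miR-6133-5p (log2 fold change -3.13, SE 0.115, edgeR adjusted p = 5.56e-09). *FN1* was at 10.3 and 11.2 times the TPM of *ITGA5* with miControl and at 40.9 and 48.2 times with miR-6133-5p, with no overlap between the groups. *ITGB1* itself, shared by many integrins, had a log2 fold change of -0.52 (edgeR adjusted p = 0.00143), short of a call.

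*ITGAV* and *ITGB3*, whose products join into a receptor for fibronectin, osteopontin, EDIL3 and others, were both called lower. *ITGAV* was at 376 and 402 CPM with miControl and at 198 and 227 CPM with miR-6133-5p, with a log2 fold change of -0.87 (SE 0.109, edgeR adjusted p = 5.51e-05). *ITGB3* was at 14.0 and 13.9 CPM against 4.07 and 5.53 CPM, with a log2 fold change of -1.53 (SE 0.156, edgeR adjusted p = 9.71e-06), and 33.2% of its exon bases lie also in another annotated gene on the same strand. The study also lists *ITGA5*, *ITGAV* and *ITGB3* among genes picked as lower in these libraries, so their directions are not independent evidence.

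The remaining receptor genes called lower do not code for integrins. *SDC1*, a heparan sulfate proteoglycan of the cell surface, was at 401 and 380 CPM with miControl and at 223 and 219 CPM with miR-6133-5p (log2 fold change -0.82, SE 0.102, edgeR adjusted p = 5.01e-05). *LRP1*, which takes up thrombospondins and many other ligands, was at 302 and 285 CPM with miControl and at 121 and 216 CPM with miR-6133-5p (log2 fold change -0.80, SE 0.194, edgeR adjusted p = 0.00700). The miR-6133-5p libraries of *LRP1* were far apart, and its value lay at the edge of the fold needed for a call. Without miR-6133-5p replicate 1, *ITGAV* and *LRP1* were no longer called, and without miControl replicate 1, *SDC1* and *LRP1* were not, which leaves 3 receptors in each case. *LRP1* was also not called without miControl replicate 2 or with no filter on low counts, *ITGAV* and *LRP1* were not with the offset for transcript length, and with library totals alone or glmTreat the calls of *ITGA5* and *ITGB3* were the 2 left.

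*CD44*, a receptor for osteopontin and hyaluronan, and *CALR*, whose product binds thrombospondin 1 at the cell surface, had log2 fold changes of -0.57 (edgeR adjusted p = 8.53e-04) and -0.42 (edgeR adjusted p = 0.00631), both short of a call. The 2 receptors with an unadjusted p under 0.05 in the higher direction, named here after their values were seen, were the thrombospondin receptor *CD47* and the fibronectin-binding proteoglycan *SDC4*. Their log2 fold changes of 0.60 (edgeR adjusted p = 4.98e-04) and 0.56 (edgeR adjusted p = 0.00116) were also short of a call.

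Among 23 relatives of the 10 genes and other adhesive matrix glycoproteins, 13 were tested, and the other 10, among them *COMP*, *IBSP* and *SMOC2*, had too few counts. Here 1 was called lower and 0 higher, where 5.54% and 2.90% of all tested genes were, so the count lower is near the background. Of the 13, 5 had a negative and 8 a positive log2 fold change, and the median was 0.10. DESeq2 and limma-voom also called 0 higher, and 0 had an unadjusted p under 0.05 in that direction in edgeR. *FSTL1*, a secreted relative of *SPARC*, fell from 1437 and 1461 CPM with miControl to 809 and 786 CPM with miR-6133-5p (log2 fold change -0.86, SE 0.0992, edgeR adjusted p = 2.69e-05). The most abundant of the others were *SPOCK1*, a proteoglycan related to SPARC, and the matrix glycoproteins *FBLN2* and *ECM1*. Their log2 fold changes were -0.38, 0.10 and 0.10 (edgeR adjusted p = 0.0104, 0.525 and 0.516), and none of them was called.

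A list of 13 genes, all tested, covered the assembly, cross-linking or processing of matrix proteins and the integrin adhesions. Here 1 was called lower and 2 higher, beside 5.54% and 2.90% of all tested genes, so that the count lower is again near the background. The median log2 fold change was -0.21, with 8 genes negative and 5 positive. Besides the 2 called higher, *BMP1* and *LTBP1* had an unadjusted p under 0.05 in that direction in edgeR. They are named here after their values were seen. Their log2 fold changes of 0.52 and 0.26 (edgeR adjusted p = 0.00190 and 0.0725) were short of a call. *THSD4*, whose product promotes fibrillin microfibrils, was at 35.7 and 36.96 CPM with miControl and at 15.0 and 17.3 CPM with miR-6133-5p (log2 fold change -1.17, SE 0.116, edgeR adjusted p = 7.54e-06). *TGM2*, a transglutaminase that cross-links fibronectin and other matrix proteins, rose from 8.83 and 7.11 CPM to 17.7 and 21.2 CPM (log2 fold change 1.29, SE 0.144, edgeR adjusted p = 2.08e-05). *PLAU*, the urokinase gene of the plasminogen system, rose from 16.7 and 17.2 CPM to 37.2 and 31.2 CPM (log2 fold change 1.01, SE 0.120, edgeR adjusted p = 3.56e-05), and 31.0% of its exon bases were shared with exons on the opposite strand. The integrin-linked adhesion genes *TLN1*, *FERMT2* and *TNS1* were the most abundant of those not called, with log2 fold changes of -0.43, -0.50 and -0.70 (edgeR adjusted p = 0.0286, 0.00266 and 0.00383). Without miR-6133-5p replicate 2, *TNS1* was called lower as well.

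**Figure D5:**
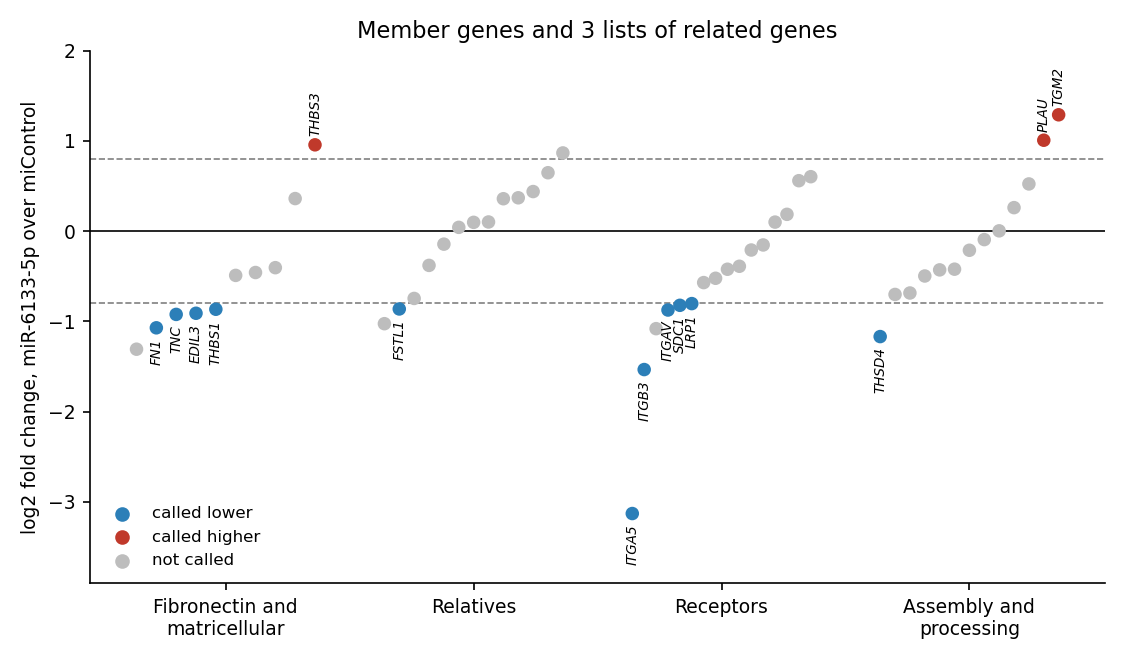
Log2 fold change of every tested gene, miR-6133-5p over miControl, in the 10 members, 13 relatives, 16 receptors and 13 assembly and processing genes, ordered within each list, with called genes coloured and named and dashed lines at the fold of 0.8. *ITGA5* lies lowest at -3.13, and *THBS3*, *PLAU* and *TGM2* are the genes called higher.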

How the data were processed

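RNA of LX-2 cells was sequenced as read pairs in 4 libraries made with a stranded mRNA kit. The authors aligned the reads to GRCh37 with STAR 2.5.3a and counted them with featureCounts of Subread 1.6.4, per the submitters' processing notes, and deposited raw counts per Ensembl gene without normalization. The mapping summary, as deposited, gives the fraction of input read pairs that mapped uniquely, here 96.5% to 96.8%. Counts summed to 1.68 to 1.70 per uniquely mapped pair, so mates were counted singly and counts are not independent fragments. The annotation release and strand setting are not given in the sources used here.

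All 4 libraries were fitted by group in edgeR 4.0.16 under R 4.3.3 (TMM, filterByExpr, glmQLFit, glmQLFTest, 2-sided) with Benjamini–Hochberg adjustment over 18252 genes, at the adjusted p of 0.01 and log2 fold of 0.8 that the study's methods use. The common biological coefficient of variation was 0.105. Standard errors and intervals came from the F statistic. Symbols, positions, exon lengths and overlaps came from GENCODE and name tables on GRCh37, which matched 55665 of 63677 genes. The fit was tested on simulated data.

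The members and lists were chosen with earlier results of these data known. Named genes are all members, every called gene of the 3 other lists and the 3 most abundant not called in each, *TGFBR2* and cell type markers. Beyond this rule, *CD47*, *SDC4*, *BMP1* and *LTBP1* were named after their values were seen. Some untested relatives, genes called only in an alternative and genes on the strand opposite to members are named too. The marker *PECAM1* could not be matched. Alternatives were RLE, library totals alone, TMM without the members, DESeq2 1.42.0, limma-voom 3.58.1, glmTreat, other filters and thresholds, thinning, a replicate block, each library left out, and an offset for transcript length chosen after seeing the data. Replicate deviations of the 2 groups correlated at 0.0548, and with 2 pairs the numbers were not taken to pair the libraries. Plots were drawn with matplotlib 3.10.9.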

Additional observations from a re-analysis of the deposited data

How the results depend on the processing

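With 2 libraries per group, no outlying library could be tested for, and low counts limit *THBS3*, *POSTN* and *SPP1*. The 10 genes kept their sign under the 14 alternatives that give a fold change of their own, while glmTreat and the adjusted p of 0.05 keep the reported one. Members called lower were 4 in the reported fit, 1 (*FN1*) with library totals alone, 0 with glmTreat, which tests the fold of 0.8 itself, and 2 to 4 when each library was left out. Members called higher were 0 with glmTreat and 0 to 1 with a library left out. Relatives called lower were 0 with library totals alone, 0 with glmTreat, 2 at an adjusted p of 0.05 (*FSTL1* and *VTN*) and 1 to 2 with a library left out. Receptors called lower were 2 (*ITGA5* and *ITGB3*) with library totals alone, 2 with glmTreat, 3 with the offset for transcript length and 3 to 6 with a library left out. Assembly genes called with glmTreat were 0 lower and 0 higher, and 1 to 2 were lower with a library left out. Under glmTreat, which does not test against 0, the edgeR adjusted p of *FN1* was 0.119. Its adjusted p was under 0.01 in 15 of its 16 alternatives, all but glmTreat. The lowest was 3.53e-41 in edgeR with no filter on low counts. Over all genes, 1011 were called lower and 529 higher in the reported fit, 709 and 977 with library totals alone, and 326 and 80 with glmTreat. The share of the 10 genes in miControl was 2.94% of uniquely mapped mates, 3.55% without mitochondrial genes and 3.66% with TMM-scaled totals, and in miR-6133-5p it was 1.74% of uniquely mapped mates. With replicate number as a block, 5 members were called lower, *POSTN* being the addition (log2 fold change -1.31), together with 1 higher, 6 receptors lower, and 1130 and 642 of all genes. The causes of these changes were not tested. The comparison of seed matches in 3′ UTRs, with its alternative of the longest 3′ UTR, was not run, since the mature miRNA sequence was not used here.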
